A study of Mus musculus with 12 samples.

Results

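The transcripts of 3 receptors of the tumor necrosis factor receptor superfamily were followed in subcutaneous Renca tumors: Tnfrsf10b, which codes for death receptor 5 (DR5), Cd40, and Tnfrsf9, which codes for 4-1BB (CD137). They were chosen as the targets of an antibody combination against DR5, CD40 and CD137, and were found by Ensembl identifier, which gave 3 members of the 14496 genes in the table. Renca is a mouse renal carcinoma cell line. The IK group held 6 subcutaneous Renca tumors of BALB/C mice that also carried a tumor inside a kidney, and the SC group held 6 subcutaneous Renca tumors of BALB/C mice without one. All 12 tumors were taken whole, tumor cells and stroma together, on day 14 after injection. The labels give no antibody or other treatment, no sex or age, and leave unsaid whether 1 mouse could give more than 1 tumor. A p-value here therefore speaks of the spread among the sampled tumors, which may include technical spread. The comparison of the groups asks whether the RNA of the 3 targets in a tumor under the skin differed when a second tumor grew in the kidney.

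DR5 is the death receptor of mice for the ligand TRAIL. When clustered it recruits the adaptor FADD and caspase-8 and starts apoptosis, and it is known on tumor cells as well as on some stromal and myeloid cells. CD40 is carried by dendritic cells, B cells, macrophages and endothelial cells, binds CD40 ligand on helper T cells, and through TRAF adaptors and nuclear factor kappa B licenses dendritic cells to prime T cells. 4-1BB is a costimulatory receptor that appears on T cells and NK cells after activation, is present on regulatory T cells, and signals through TRAF1 and TRAF2 when bound by its ligand, the product of Tnfsf9. Agonist antibodies to DR5 are aimed at tumor cells, and those to CD40 and 4-1BB at antigen-presenting cells and lymphocytes.

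Each tumor gave 53312559 to 66142468 reads, recovered from the deposited log2 values as described under the processing, with a mean of 59829094 ± 3914472 in the IK group and 59448962 ± 4277580 in the SC group (SD, n = 6 each). Levels are given as CPM (each gene's reads scaled to a common library size) or as log2 CPM, and differences as IK minus SC on the log2 scale. A gene was called at a Benjamini-Hochberg limma adjusted p under 0.05 over 14008 genes. By that rule 0 of 14008 genes were called (0.0%), and limma voom on the recovered reads also called 0. At an unadjusted limma p under 0.05 there were 1608 genes (11.5%), with 821 higher (5.86%) and 787 lower (5.62%) in the IK group. In 67 genes (0.478%) the values of the groups did not overlap. 3 tumors stood apart from their groups in some of the measures, and values without them are given beside the results whose call or size they moved most. IK replicate 2 had a T cell score (the mean log2 CPM of 15 T cell genes) of 3.45, against 0.61 to 1.55 in the other IK tumors. SC replicate 6 had a T cell score of 1.14, against 2.39 to 3.53 in the other SC tumors, and a skeletal muscle score of -1.07, against 3.94 to 5.85. SC replicate 5 had the lowest proliferation score of its group and the highest level of Jak3. With IK replicate 2 left out, 171 genes were called. The 10 tested of 12 epithelial and renal genes were present in all tumors, with summed levels of 2641 to 2796 CPM in the IK group and 2510 to 3155 CPM in the SC group.

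None of the 3 receptors passed the test. Tnfrsf9 had a higher mean and a much wider spread in the IK group, Cd40 a lower mean, and Tnfrsf10b nearly the same level in both groups. For all 3 the values of the groups overlapped.

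Tnfrsf10b (ENSMUSG00000022074, chromosome 14) was the steadiest. Its level in the IK group ran from 15.5 CPM through a median of 18.9 to 20.1 CPM, and in the SC group from 16.1 CPM through a median of 17.1 to 18.6 CPM. In the IK group 3 tumors stood above every SC tumor, while IK replicate 2, with 15.5 CPM, stood below every SC tumor. The mean was 18.5 ± 1.61 CPM in the IK group and 17.4 ± 0.952 CPM in the SC group (SD, n = 6 each). The log2 difference was 0.09 (SE 0.06, 95% interval -0.05 to 0.23), with a limma adjusted p of 0.542 and a two-sided exact permutation p of 0.177. Without IK replicate 2 the difference was 0.14, with a limma adjusted p of 0.12. Behind each value lay 887 to 1276 reads. The residual SD of 0.109 on the log2 scale was near the median of all genes, 0.114.

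The proteins around DR5 fall into its ligand, its decoys and the parts that relay the death signal. Tnfsf10, the gene of TRAIL, had the largest difference among these partners. Its level ran from 2.65 CPM through a median of 4.13 to 22.9 CPM in the IK group, and from 5.03 CPM through 11.3 to 24.8 CPM in the SC group. In 4 of the 6 IK tumors it was below every SC tumor, and IK replicate 2 held the one high value of its group. The log2 difference was -1.18 (SE 0.49), with an unadjusted limma p of 0.031 and an adjusted p of 0.432. Without IK replicate 2 it was -1.61, with a limma adjusted p of 0.041, so that the call for TRAIL turned on that one tumor. With limma's sample weights, which give less weight to tumors far from their group, it was -1.45 (limma adjusted p = 0.0369).

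The decoy receptors bind TRAIL without relaying a death signal. Tnfrsf23, one of the mouse decoys, averaged 117 ± 14.0 CPM in the IK group and 103 ± 10.4 CPM in the SC group, a log2 difference of 0.18 (limma adjusted p = 0.432). Tnfrsf22, the other mouse decoy, differed by 0.11 (limma adjusted p = 0.516), and Tnfrsf11b, the secreted decoy osteoprotegerin, by -0.14 (limma adjusted p = 0.745). None of the decoys passed the test, and in each the groups overlapped. Downstream, the adaptor Fadd differed by 0.00049, the initiator caspase Casp8 by -0.04 and its inhibitor Cflar by 0.01, all smaller than their standard errors of 0.06, 0.06 and 0.05, and with trimmed-mean scaling the sign of Fadd turned. Of the 27 genes of the death receptor pathway list, 0 were called, and 12 had a higher and 15 a lower mean in the IK group. Of the 27, 3 had an unadjusted p under 0.05, beside 11.5% of all genes. The median difference of the list was -0.00099, against 0.0074 over all 14008 genes. The smallest p of that list was that of Apaf1, the scaffold of the apoptosome, at 52.4 ± 2.71 CPM in the IK group and 48.4 ± 1.19 CPM in the SC group (log2 difference 0.11, limma adjusted p = 0.432).

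Tnfrsf10b is a known target of p53 and, under stress of the endoplasmic reticulum, of the transcription factor CHOP with ATF4. All 8 regulators listed for it were tested, and 7 had a higher mean in the IK group and 1 a lower one, with 0 called and 0 at an unadjusted p under 0.05. Atf4 averaged 449 ± 66.6 CPM in the IK group and 387 ± 53.3 CPM in the SC group (log2 difference 0.21, limma adjusted p = 0.452), Atf3 differed by 0.28 and Trib3, an ATF4 target, by 0.26. These differences stayed within the spread between tumors. Among 15 genes of the ATF4 and CHOP stress response 13 had a higher mean (median difference 0.12), and among 16 tested of 17 p53 target genes 14 did (median 0.02), with 0 called in both and 53.3% of all genes having a higher mean. The p53 target with the smallest p was Mdm2, the inhibitor of p53, at 69.5 ± 4.56 CPM in the IK group and 63.8 ± 2.34 CPM in the SC group (log2 difference 0.12, limma adjusted p = 0.432).

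**Figure D1:**
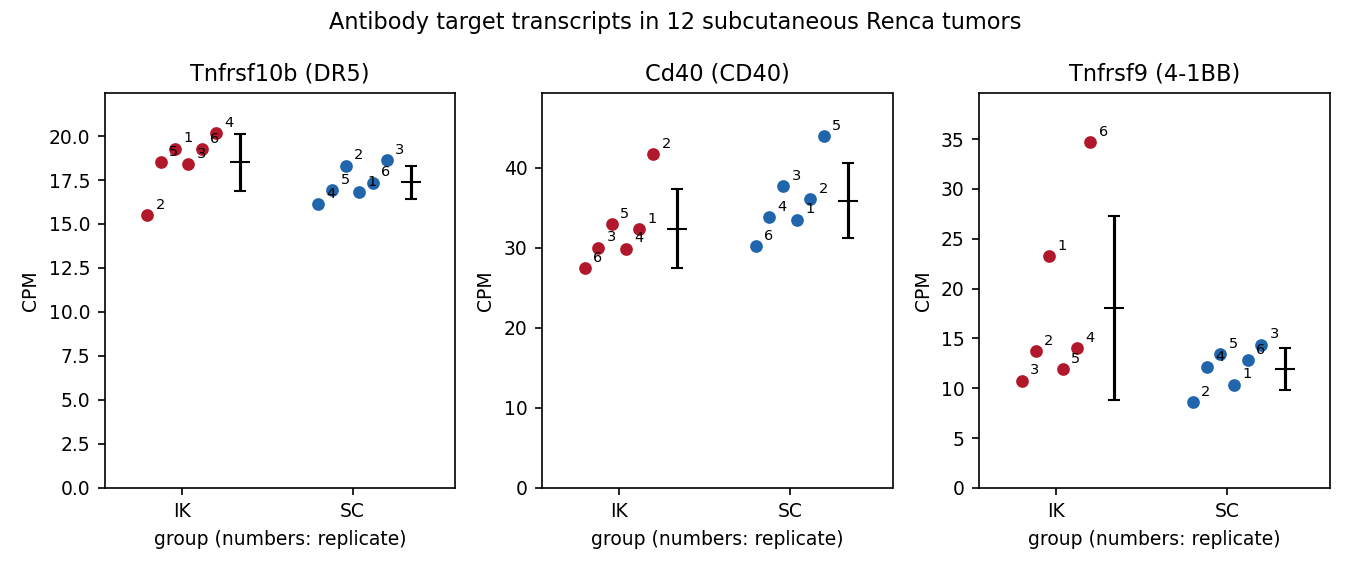
Level of each receptor transcript in CPM (y axes from 0) by group (x axis: IK group, then SC group), with 1 point per tumor labelled by its replicate number and bars for the mean ± SD (n = 6 each). Tnfrsf10b lies between 15.5 and 20.1 CPM in the IK group and between 16.1 and 18.6 CPM in the SC group, and for Tnfrsf9 only IK replicates 1 and 6 stand above the SC group.

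Cd40 (ENSMUSG00000017652, chromosome 2) ran from 27.4 CPM through a median of 31.1 to 41.7 CPM in the IK group, and from 30.2 CPM through a median of 34.9 to 43.9 CPM in the SC group. In 3 IK tumors it was below every SC tumor, and in none above them. IK replicate 2 was the highest of its group, and SC replicate 6 the lowest of its own. The mean was 32.4 ± 4.96 CPM in the IK group and 35.9 ± 4.70 CPM in the SC group (SD, n = 6 each). The log2 difference was -0.15 (SE 0.10, 95% interval -0.38 to 0.07), with a limma adjusted p of 0.527 and an exact permutation p of 0.206. It was -0.23 without IK replicate 2 (limma adjusted p = 0.138) and -0.20 without SC replicate 6 (limma adjusted p = 0.276), and -0.09 without SC replicate 5 (limma adjusted p = 0.835), the tumor of highest Cd40, so Cd40 passed in none of these cases.

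The ligand gene Cd40lg was not analysed here. Of the adaptors that bind the tail of CD40, Traf2 (0.03) and Traf3 (0.0095) had log2 differences close to 0, as did Map3k14 (-0.07), the kinase of the noncanonical kappa B route. Traf6, another of these adaptors, differed by 0.09 (SE 0.04, limma adjusted p = 0.439), with 4 of the 6 IK tumors above every SC tumor. Traf1, an adaptor that kappa B itself induces and that also serves 4-1BB, ran from 12.3 CPM through a median of 16.2 to 28.1 CPM in the IK group, and from 15.1 CPM through 22.2 to 33.6 CPM in the SC group. Its log2 difference was -0.46 (SE 0.21, limma adjusted p = 0.432), and only 2 of the 6 IK tumors lay below the SC group. Of the 19 tested of 20 CD40 pathway genes 0 were called, and 6 had a higher and 13 a lower mean in the IK group (median difference -0.04). Of the 19, 4 had an unadjusted p under 0.05, beside 11.5% of all genes. The 3 pathway genes of smallest p were Ikbkb, a kinase of the canonical kappa B route, at 73.2 ± 2.70 CPM in the IK group and 79.6 ± 3.72 CPM in the SC group (log2 difference -0.12, limma adjusted p = 0.432), Jak3 (-0.24) and Tank (0.06).

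Dendritic cells licensed through CD40 are known to make costimulatory ligands, interleukins and chemokines. Of 19 such genes 15 were tested, with 2 higher and 13 lower means in the IK group (46.7% of all genes had a lower mean). They had 0 called and a median difference of -0.18. Their smallest p was that of Cd274, the gene of the inhibitory ligand PD-L1, which averaged 65.8 ± 14.6 CPM in the IK group and 83.0 ± 11.6 CPM in the SC group (log2 difference -0.35, limma adjusted p = 0.432). Il1b, the gene of interleukin 1 beta, differed the other way, at 47.8 ± 23.0 CPM in the IK group and 31.9 ± 4.85 CPM in the SC group (log2 difference 0.48, limma adjusted p = 0.442). Beside these values, all 12 dendritic cell genes had a lower mean in the IK group, with summed levels of 245 to 465 CPM in the IK group and 259.8 to 502 CPM in the SC group and none of the genes at 0 reads in any tumor. Of 9 tested of 10 mature dendritic cell genes 7 had a lower mean, and of 14 macrophage genes 11 did, and 0 of these genes were called. In whole tumors, fewer cells of a type and less RNA per cell cannot be told apart.

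Tnfrsf9 (ENSMUSG00000028965, chromosome 4) varied most. It ran from 10.8 CPM through a median of 13.9 to 34.7 CPM in the IK group, and from 8.62 CPM through a median of 12.5 to 14.4 CPM in the SC group. Only IK replicate 6, with 34.7 CPM, and IK replicate 1, with 23.2 CPM, exceeded the highest SC tumor. The other 4 IK tumors, at 10.8 to 14.0 CPM, lay within the SC range. The mean was 18.1 ± 9.26 CPM in the IK group and 11.95 ± 2.12 CPM in the SC group (SD, n = 6 each). The log2 difference was 0.48 (SE 0.26, 95% interval -0.08 to 1.04, a fold of 1.397), with a limma adjusted p of 0.464 and an exact permutation p of 0.141. It was 0.27 without IK replicate 6 and 0.38 without IK replicate 1. With both left out, a choice made after seeing the data, it was 0.09 (exact permutation p = 0.61). The highest tumor was 3.22 times the lowest in the IK group and 1.67 times in the SC group. The residual SD of Tnfrsf9, 0.499, was larger than that of 96.0% of the 1749 genes whose mean level lay within 0.5 log2 units of its own, while Cd40 (0.196) exceeded 88.5% of 2650 such genes and Tnfrsf10b 49.6% of 2018. An opposite-strand gene, Camta1, overlaps the Tnfrsf9 locus but shares 0 exon bases with it.

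The bases before the start sites of Tnfrsf9 are shown because the gene is known to be induced by kappa B and AP-1 factors. A further reason is that its level went with that of hypoxia genes over the 12 tumors. That relation rested on IK replicates 1 and 6, with Pearson's r of 0.87 over all tumors and 0.39 without them. RefSeq (GRCm38.p6, another build than the mm9 of the deposited table) lists 2 start sites on the plus strand. The stretch before the first is chr4:150919905-150920154, and that before the second is chr4:150927749-150927917, which stops where an annotated exon begins. Capitals mark a match to the gamma-activated sequence TTCNNNGAA.
Tnfrsf9 start site 1: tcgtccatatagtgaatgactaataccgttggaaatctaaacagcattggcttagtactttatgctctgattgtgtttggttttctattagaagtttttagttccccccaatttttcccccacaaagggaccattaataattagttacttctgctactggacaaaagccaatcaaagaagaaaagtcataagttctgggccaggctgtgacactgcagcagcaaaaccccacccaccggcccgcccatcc
Tnfrsf9 start site 2: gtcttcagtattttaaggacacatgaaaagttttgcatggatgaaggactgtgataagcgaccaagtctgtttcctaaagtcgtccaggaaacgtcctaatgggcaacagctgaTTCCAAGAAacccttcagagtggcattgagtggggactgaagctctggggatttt
Windows of 250 bases before each start were searched on both strands for the hypoxia response core ACGTG, the AP-1 element TGANTCA, TTCNNNGAA, the interferon-stimulated response element, a kappa B element and a p53 decamer. The first window held no match to any of them. The second held the marked match, an AP-1 match 15 bases and a kappa B match 42 bases before the start, the last 2 in the exon that is not shown. Neither window held ACGTG, which 16.6% of 32851 mouse promoter windows hold, while 6.75% hold the AP-1 element, 7.02% TTCNNNGAA, 2.98% the interferon-stimulated response element, 7.25% the kappa B element and 7.13% the p53 decamer. These matches describe letters only. Promoters of Cd40 and Tnfrsf10b are not shown.

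Tnfsf9, the gene of the 4-1BB ligand of antigen-presenting cells, ran from 7.35 CPM through a median of 8.56 to 11.6 CPM in the IK group, and from 5.66 CPM through 7.13 to 8.53 CPM in the SC group. In 3 of the 6 IK tumors it was above every SC tumor. The log2 difference was 0.31 (SE 0.13), with an unadjusted limma p of 0.032, an adjusted p of 0.432 and an exact permutation p of 0.0519. Ligand and receptor thus both had a higher mean in the IK group, and neither passed the test. Lrr1, which codes for a protein that binds the tail of 4-1BB, differed by 0.04. Of the 15 tested of 16 genes of the 4-1BB pathway list 7 had a higher and 8 a lower mean in the IK group, with 0 called and a median difference of -6e-05. Nfatc1, a transcription factor of activated T cells, had 49.8 ± 4.58 CPM in the IK group and 54.8 ± 3.26 CPM in the SC group (log2 difference -0.14, limma adjusted p = 0.432).

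The other costimulatory receptors of T cells did not share the direction of Tnfrsf9. All 9 tested of 10 had a lower mean in the IK group (median difference -1.12), beside 46.7% of all genes. Of the 9, 6 were lower at an unadjusted p under 0.05, beside 5.62% of all genes, and 0 were called. Cd27 averaged 1.76 ± 1.84 CPM in the IK group and 3.804 ± 1.82 CPM in the SC group (log2 difference -1.45, limma adjusted p = 0.432), and Tnfrsf14, the receptor HVEM, 5.56 ± 2.14 CPM in the IK group and 8.61 ± 2.51 CPM in the SC group (log2 difference -0.66, limma adjusted p = 0.432). Without IK replicate 2 both were called, along with Tnfsf10 and Cd28, as 4 genes of the 6 pathway lists. The adhesion receptor Cd2 differed by -1.40. Markers of the cells that carry 4-1BB went the same way: all 15 T cell genes, all 6 tested of 7 regulatory T cell genes and all 10 tested of 13 NK and cytotoxic genes had a lower mean. Of them 11, 5 and 10 were lower at an unadjusted p under 0.05, beside 5.62% of all genes, and 0 were called. Of these marker genes 11 were called without IK replicate 2, each lower in the IK group: Lck, Cd5, Cd6 and Lat of T cells, Foxp3 of regulatory T cells, and Tbx21, Nkg7, Gzma, Eomes, Prf1 and Ncr1 of NK and cytotoxic cells. With sample weights 14 of the T cell, 4 of the regulatory T cell and 9 of the NK and cytotoxic genes were called. Over all 14008 genes 171 were called without IK replicate 2 and 545 with sample weights. The weights gave IK replicate 2 the least weight, 0.32, so the 2 settings are not separate checks. The summed T cell level was 66.6 to 236 CPM in the IK group and 79.6 to 275 CPM in the SC group, and none of the tested genes was at 0 reads in any tumor.

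**Figure D2:**
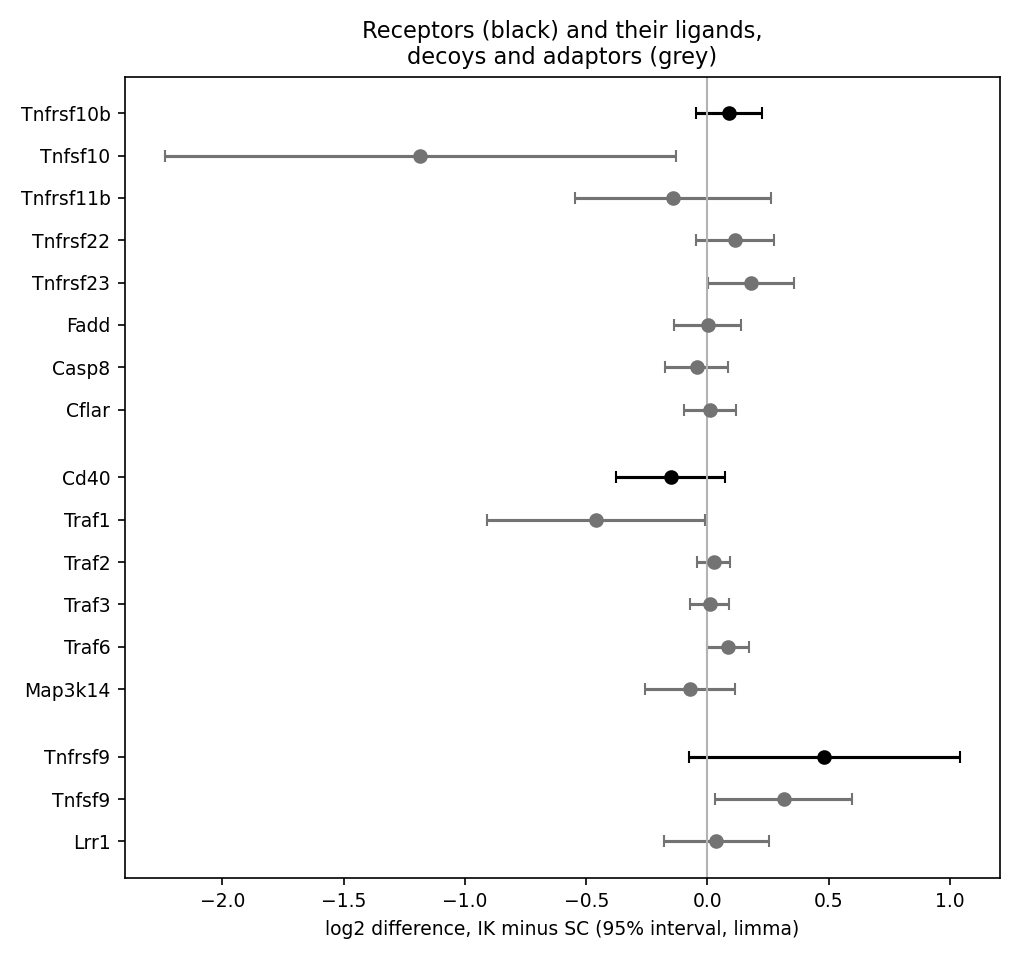
Log2 difference, IK minus SC (x axis), with its 95% limma interval, for the receptors (black) and their ligands, decoys and adaptors (grey), grouped by receptor from top to bottom. Tnfsf10 lies farthest from 0 at -1.18, Tnfrsf9 and Tnfsf9 lie at 0.48 and 0.31, and most adaptors lie close to 0. Intervals are not adjusted for the number of genes.

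Per kilobase of exon, Cd40 was the most abundant of the 3 in the mean. It had 9.50 ± 1.46 CPM per kb in the IK group and 10.5 ± 1.38 CPM per kb in the SC group (SD, n = 6 each). Tnfrsf9 had 6.63 ± 3.40 CPM per kb in the IK group and 4.39 ± 0.779 CPM per kb in the SC group. Tnfrsf10b was lowest, with 3.40 ± 0.296 CPM per kb in the IK group and 3.19 ± 0.175 CPM per kb in the SC group. Cd40 exceeded Tnfrsf10b in all 12 tumors and Tnfrsf9 in 11, the exception being IK replicate 6, where Tnfrsf9 reached 12.7 CPM per kb beside 8.05 for Cd40. Tnfrsf9 exceeded Tnfrsf10b in 11 tumors, the exception being SC replicate 2, with 3.17 beside 3.36 CPM per kb. In their mean level per kilobase Cd40, Tnfrsf9 and Tnfrsf10b stood at percentiles 60.3, 41.0 and 30.1 of 13565 genes. Exon lengths of 3406, 2722 and 5451 bases came from a newer annotation, so the order between genes depends on the transcripts in use.

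Per kilobase, Tnfrsf9 also exceeded Cd3e, a chain of the T cell receptor complex, in all 12 tumors. In IK replicate 6 the values were 12.7 CPM per kb for Tnfrsf9 and 0.205 for Cd3e, and in IK replicate 1 they were 8.54 and 0.523. In the tumors richest in Cd3e, IK replicate 2 and SC replicate 5, Tnfrsf9 had 5.04 and 4.94 CPM per kb and Cd3e 1.75 and 1.81. Cd3e was picked as an example after its values were seen.

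Each receptor was then set against the genes of cells known to carry it, as its log2 CPM minus the mean log2 CPM of that list. Relative to T cell genes, Tnfrsf9 ran from 0.33 through a median of 2.89 to 4.50 in the IK group, and from 0.22 through a median of 0.77 to 2.54 in the SC group. IK replicate 2 sat among the SC tumors, and SC replicate 6 among the IK tumors. The mean was 2.63 ± 1.39 in the IK group and 0.97 ± 0.81 in the SC group, a difference of 1.66 with an exact permutation p of 0.039, or 0.0747 adjusted over the 6 relative values computed. The difference was 1.51 relative to regulatory T cell genes (exact permutation p = 0.0325) and 0.75 relative to pan-leukocyte genes (exact permutation p = 0.0498), each with an adjusted p of 0.0747. None of these passed after adjustment. The 3 passed without IK replicate 2, at 2.12, 1.89 and 0.92 (adjusted exact permutation p of 0.0216, 0.0216 and 0.026), and without SC replicate 6, at 1.98, 1.801 and 0.87 (0.039, 0.039 and 0.0455). They shrank to 1.07, 0.97 and 0.29 without IK replicates 1 and 6 (adjusted exact permutation p of 0.295 to 0.321). IK replicate 2 had been flagged by its T cell score, which the first value subtracts. SC replicate 6 had been flagged by the first value itself, and had the lowest T cell score of its group. Leaving either out thus widens that difference by construction. In 16 of 18 alternatives, those 2 tumors' omissions apart, none of the 3 values passed. Since these values subtract lists whose own means were lower in the IK group, they do not show more Tnfrsf9 RNA per cell, and sources of Tnfrsf9 outside T cells were not tested.

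Cd40 relative to dendritic cell genes showed the same ordering on a smaller scale. It ran from 1.17 through a median of 1.79 to 2.01 in the IK group, and from 1.022 through a median of 1.31 to 1.86 in the SC group, with IK replicate 2 lowest and SC replicate 6 highest in their groups. The difference was 0.41 (exact permutation p = 0.0476, adjusted p = 0.0747), 0.53 without IK replicate 2 and 0.52 without SC replicate 6 (adjusted exact permutation p of 0.0216 and 0.039). Those 2 tumors also lay at the ends of their groups in the dendritic cell score subtracted here. In 16 of 18 alternatives the difference did not pass. Relative to pan-leukocyte genes Cd40 differed by 0.12 (exact permutation p = 0.188), at -1.29 ± 0.12 in the IK group and -1.41 ± 0.17 in the SC group. Tnfrsf10b relative to epithelial and renal genes was at -2.01 ± 0.10 in the IK group and -2.11 ± 0.13 in the SC group, a difference of 0.10 (exact permutation p = 0.147, adjusted p = 0.177). For these last 2 values the groups overlapped, though neither lay wholly within the range of the other. Of the epithelial and renal genes 2 had a higher and 8 a lower mean in the IK group, with 0 called.

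**Figure D3:**
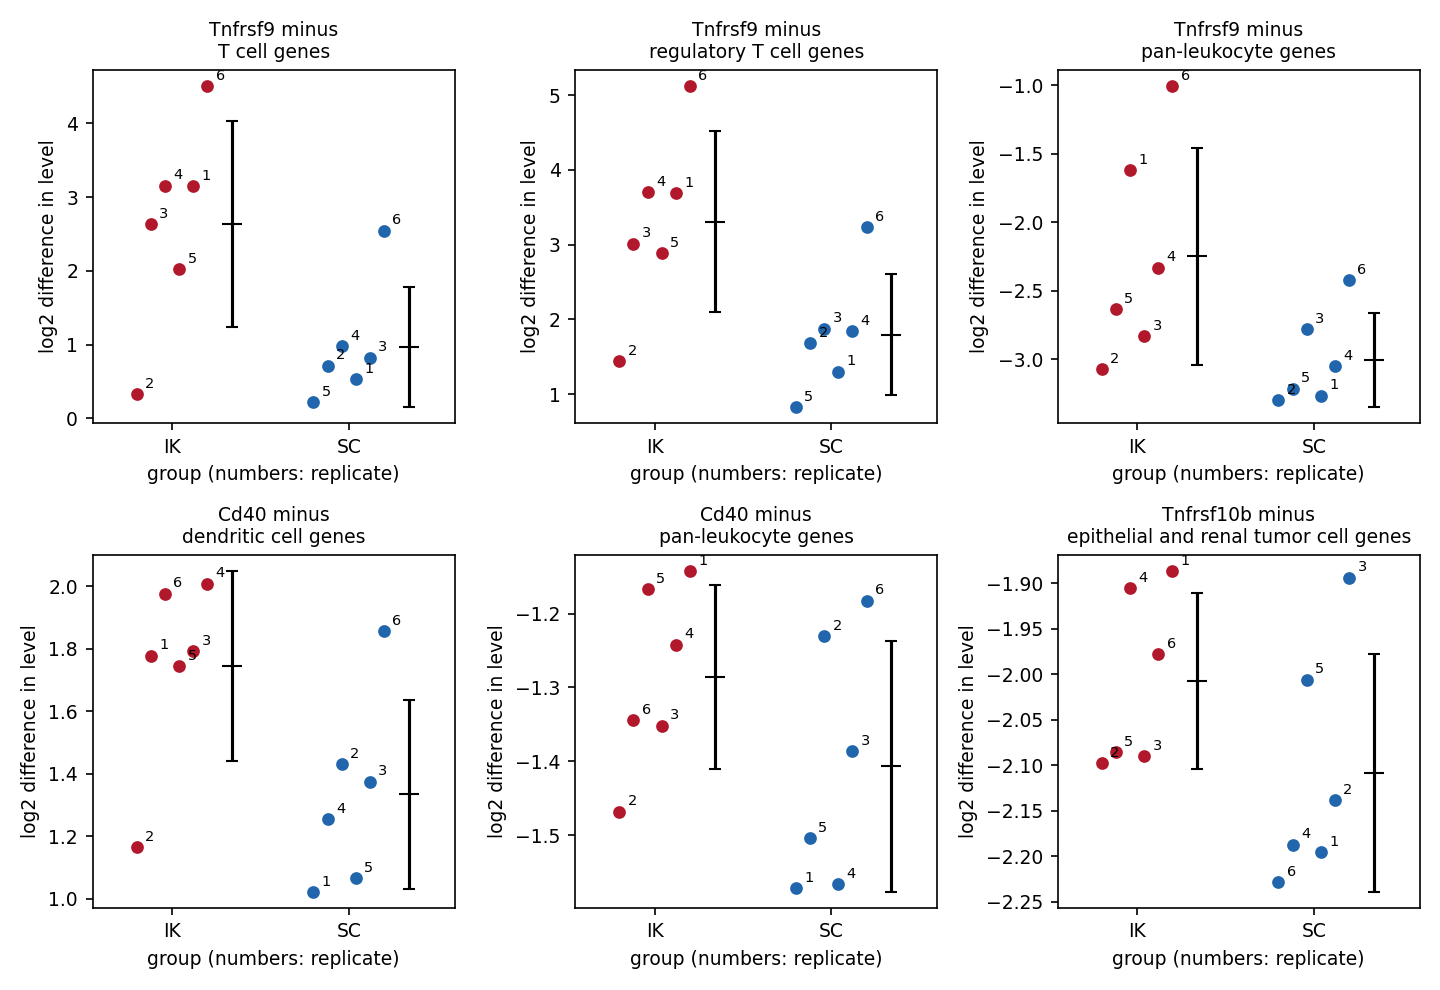
Log2 level of a receptor minus the mean log2 level of a cell type list (y axes, each with its own range that does not start at 0), by group (x axis: IK group, then SC group), 1 point per tumor labelled by replicate, with mean ± SD (n = 6 each). For Tnfrsf9 against T cell genes the IK mean is 2.63 and the SC mean 0.97, with IK replicate 2 low and SC replicate 6 high in their groups.

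Across the 12 tumors the level of each receptor was set against gene list scores. The family held 39 relations, of each receptor with 12 list scores and of the receptors with each other, by permutation tests of 100000 resamples adjusted over all 39, and 18 passed. Cd40 passed with 11 of the 12 scores. It went with the interferon gamma response score at Pearson's r = 0.92 and Spearman's rho = 0.94 (permutation p of 3e-05 and 2e-05, both 0.00039 adjusted), and with the T cell score at r = 0.93 and rho = 0.97 (permutation p of 2e-05 for both, 0.00039 adjusted). For the regulatory T cell score r and rho were 0.92 and 0.94, and for the dendritic cell score likewise 0.92 and 0.94 (permutation p adjusted to 0.00039 for all). Tumors with more interferon-response and lymphocyte RNA thus had more Cd40 RNA, in both groups: with each group centred on its mean, r was 0.93 for the interferon gamma and the T cell score. Without the 2 tumors farthest from the median of each score these 4 relations held, with r of 0.90, 0.90, 0.86 and 0.87.

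The T cell, dendritic cell and interferon gamma scores had their widest gap between 6 tumors and 6, with SC replicates 1 to 5 and IK replicate 2 above it. Within the 6 tumors below the gap Cd40 had an r of 0.90 with the T cell, 0.94 with the dendritic cell and 0.66 with the interferon gamma score, and within the 6 above it 0.85, 0.77 and 0.92. These values over 6 tumors are descriptions with n = 6. The remaining relations of Cd40 were weaker. The macrophage score had r = 0.87, the mature dendritic cell and B cell scores 0.78, and the endothelial score 0.68, while the ATF4 and CHOP (-0.79), hypoxia (-0.66) and epithelial (-0.69) scores ran the other way (permutation p adjusted to 0.0026 to 0.042 for these 7). Without the 2 farthest tumors none of the 7 passed over the other 10 tumors. The ATF4 and CHOP and the hypoxia score then had r of -0.77 and -0.69, about as large as over all 12, while r was 0.67 for the macrophage, 0.63 for the mature dendritic cell, 0.54 for the B cell, 0.48 for the endothelial and -0.31 for the epithelial score (permutation p adjusted to 0.0516 to 0.479 for the 7). The p53 target score had r = -0.08. All 16 tested of 19 interferon gamma response genes had a lower mean in the IK group (median difference -0.93), beside 46.7% of all genes. Of the 16, 14 were lower at an unadjusted p under 0.05, beside 5.62% of all genes, and 0 were called. Among the 16 were Cxcl9, a chemokine for T cells, at -2.25 and Nlrc5, the activator of MHC class I genes, at -0.87. Without IK replicate 2, 14 of these genes were called, among them Cxcl9 at -2.97 and Nlrc5 at -1.13 (limma adjusted p = 0.0339 for both), and with sample weights all 16 were. Over all 14008 genes these settings called 171 and 545. IK replicate 2 had an interferon gamma score of 7.997, against 5.39 to 6.10 in the other IK tumors, so leaving it out widens the difference by construction.

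Tnfrsf9 passed with 1 score, that of the hypoxia genes, at r = 0.87 (permutation p = 0.00162, adjusted 0.0105) and rho = 0.64 (permutation p = 0.0301, adjusted 0.0691). The hypoxia score was 6.97 and 7.04 in IK replicates 1 and 6, the tumors of highest Tnfrsf9, and 5.93 to 6.48 in the other 10. Without IK replicates 1 and 6 r was 0.39 and did not pass, so the relation rests on those tumors, and a pooled r over such a gap says little about the rest. With each group centred on its mean r was 0.83. Of the 19 tested of 20 hypoxia genes 17 had a higher mean in the IK group (median difference 0.27), beside 53.3% of all genes. Of them 5 were higher at an unadjusted p under 0.05, beside 5.86% of all genes, and 0 were called. Adm, the gene of adrenomedullin, averaged 12.7 ± 11.7 CPM in the IK group and 3.96 ± 1.36 CPM in the SC group (log2 difference 1.25, limma adjusted p = 0.432), Slc2a1, the glucose transporter GLUT1, differed by 0.71 and Pdk1, a kinase that turns pyruvate away from mitochondria, by 0.61.

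With the T cell score Tnfrsf9 had r = -0.38 over all 12 tumors (permutation p adjusted to 0.304). In the 6 tumors above the gap in the T cell score r was 0.78, and in the 6 below it -0.24, where IK replicates 1 and 6 lie. For the interferon gamma score r was 0.77 above its gap and -0.11 below. Those 6 and 6 tumors were not compared by a test.

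In the sign of r with the list scores Tnfrsf10b ran the other way from Cd40. It passed with 6 scores: the T cell (r = -0.72), regulatory T cell (-0.71), dendritic cell (-0.74), interferon gamma (-0.71) and macrophage (-0.69) scores, and the ATF4 and CHOP score (0.67), with rho of -0.66, -0.69, -0.69, -0.66, -0.62 and 0.76 and permutation p of r adjusted to 0.027 to 0.041. With the groups centred none of the 6 passed, at r of -0.65, -0.64, -0.68, -0.63, -0.65 and 0.60 (permutation p adjusted to 0.0667 to 0.0875). Without the 2 farthest tumors none passed either, at r of -0.59, -0.62, -0.72, -0.64, -0.46 and 0.64. The mature dendritic cell (r = -0.57) and endothelial (-0.62) scores did not pass over all 12 tumors, and without SC replicates 5 and 6 they did, at r of -0.81 and -0.84 (permutation p adjusted to 0.0328 and 0.0193). The hypoxia score had r = 0.60 and the p53 target score 0.41, neither of which passed. In IK replicate 2, the tumor lowest in Tnfrsf10b, the T cell score was the highest of the IK group. Between the receptors, r was -0.59 for Tnfrsf10b and Cd40 (permutation p = 0.0418, adjusted 0.0776), 0.38 for Tnfrsf10b and Tnfrsf9 and -0.36 for Cd40 and Tnfrsf9. No pair passed.

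**Figure D4:**
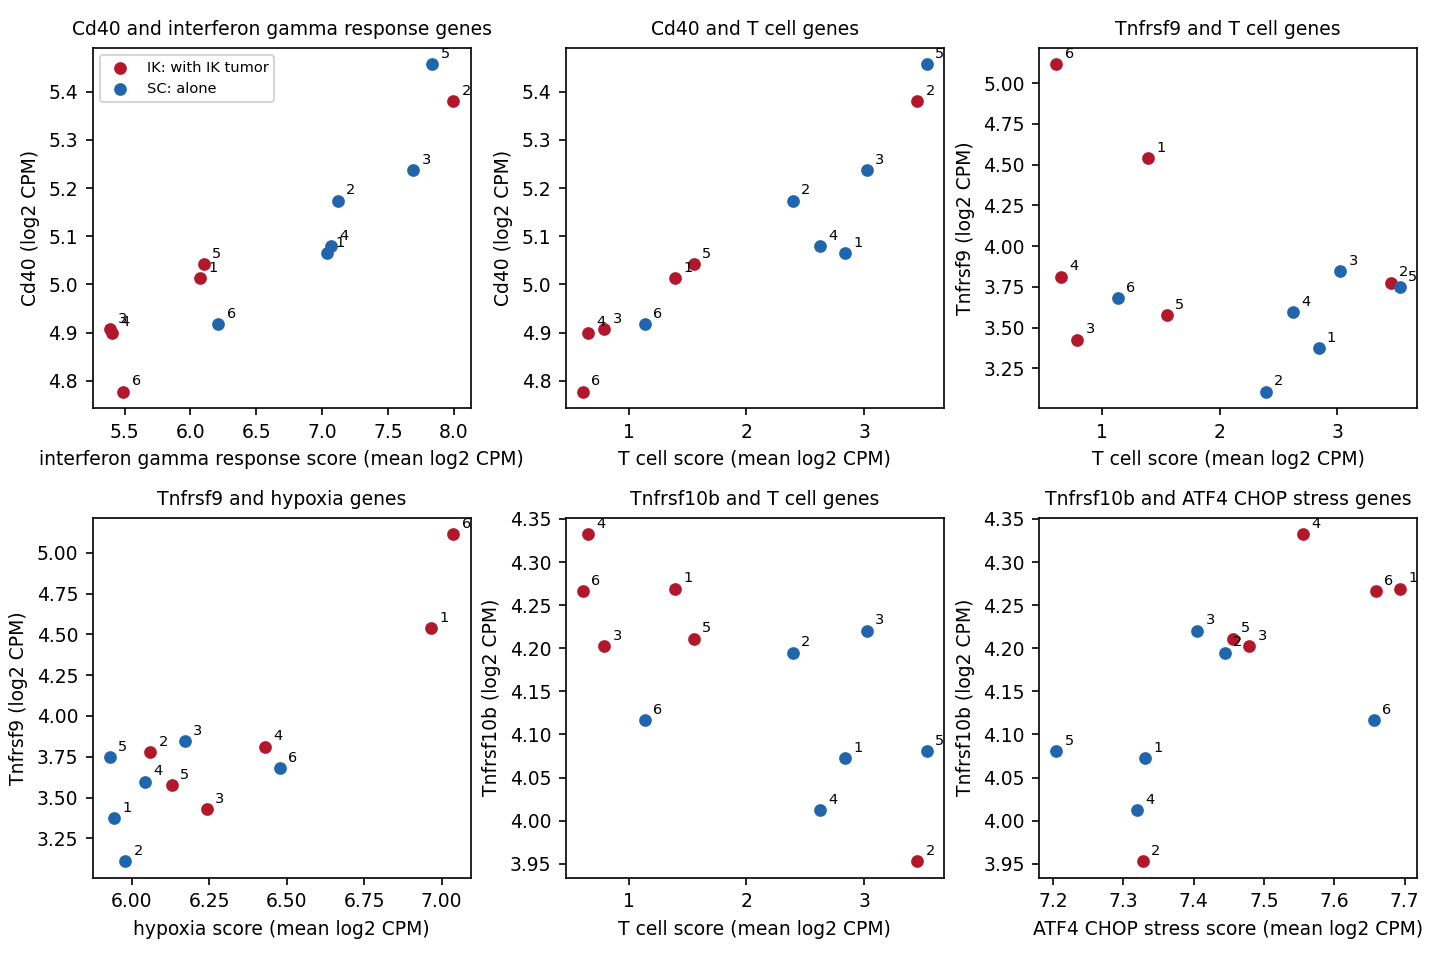
Log2 CPM of a receptor (y axes) against the mean log2 CPM of a gene list (x axes) in the 12 tumors, IK group in red and SC group in blue, points labelled by replicate; no axis starts at 0. Cd40 lies along a line with the interferon gamma and T cell scores in both groups, while the 2 highest values of Tnfrsf9 are IK replicates 6 and 1, which also have the highest hypoxia scores, 7.04 and 6.97.

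The genes most like each receptor over the 12 tumors were taken by Pearson's r of log2 CPM over 14007 other genes, as a description. For Cd40 they were Parp12 (r = 0.98), Trafd1 (0.98), Slfn8 (0.98), Hdc (0.97) and Mmp25 (0.97), and r stayed at 0.93 to 0.95 without the 2 tumors of most extreme Cd40. Parp12, Trafd1 and Slfn8 are known as interferon-induced genes. For Tnfrsf9 they were Slc16a3 (0.94), Itpk1 (0.94), P4ha1 (0.94), Gm16103 (0.93) and Plod1 (0.92), with 0.45 to 0.78 without IK replicates 1 and 6. Slc16a3 exports lactate, and P4ha1, which is also in the hypoxia list, and Plod1 hydroxylate collagen. For Tnfrsf10b they were Wdr7 (0.91), Reep4 (0.91), Uchl4 (0.89), Nkx2-3 (0.89) and Cdc42bpb (0.88). Cd40 had 462 genes at r of at least 0.9, Tnfrsf9 had 9 and Tnfrsf10b 2, so that only Cd40 shared its pattern with a large set of genes.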

How the data were processed

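RNA was measured in 12 whole tumors. Libraries were made with an Illumina TruSeq kit from total RNA isolated with a Qiagen kit, per the labels' protocols. Per the submitters' processing notes, CASAVA 1.8.2, TopHat 1.4.1, HTSeq and limma were used with mouse build mm9. Strand handling, settings and the annotation release are not given in the sources used here, so reads of genes that overlap on opposite strands cannot be told apart.

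The authors deposited log2 values for 14496 genes in 12 columns named by sample. Taken off the log2 scale, 100% of values in each column were whole reads with 0.5 added, multiplied by a constant of that column, within 0.001 of a read. They are thus log2 CPM in the form limma voom gives, and the reads recovered from them gave the depth. That depth sets the counting error, and the spread between tumors also limits the precision. Symbols were found by identifier for 14004 genes, and exon lengths came from GENCODE M21 (GRCm38). The lowest rows still reached 1 CPM in 2 tumors, and genes below that were not analysed here.

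The 14008 genes that reached a log2 CPM of 0 in 6 or more tumors entered the test, limma 3.58.1 run in R 4.3.3 (empirical Bayes with a trend), two-sided, without further scaling and with Benjamini-Hochberg adjustment at 0.05. All 3 receptors passed the filter. Single values were tested with two-sided exact permutation over the 924 ways to assign tumors to groups, which can give no p below 0.00216. On simulated data for IK against SC (14008 genes, of which 200 were changed) the test was checked. Of its 185 calls 11 were false, and the share recovered was 97% at a 2-fold and 77% at a 1.5-fold change, which need not carry over to genes that vary as much as lymphocyte genes. Replicate numbers were not taken as pairs in the main test. No library was a duplicate of another of its group, since chi-square over degrees of freedom was 13.5 or more in all 30 pairs.

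The receptors, the 25 gene lists and the rule for named genes were chosen with earlier results of these data known. The rule named the receptors, their ligands, decoys and direct adaptors, the 3 genes of smallest p in each pathway and state list, and the 5 genes of highest r with each receptor. Alternatives were other filters, scalings, variance models and sample weights, a replicate block, and leaving out each tumor. Leaving out IK replicates 1 and 6 together was added after seeing the data. Sequences were read from RefSeq (GRCm38.p6).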

Additional observations from a re-analysis of the deposited data

Results flagged for a closer look

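A search of 148 groups of 6 values for a tumor whose gap to its nearest neighbour exceeded 0.625 of the group's range found 26, where chance flags about 1 in 20. Most of them were IK replicate 2. In log2 CPM it stood apart from the other 5 IK tumors in Tnfrsf10b (3.95, others 4.20 to 4.33), Tnfsf10 (4.52), Tnfrsf11b (2.73), Casp8 (6.25), Traf1 (4.81), Tnfrsf14 (3.28), Cd2 (2.90), Iigp1 (9.69) and Cxcl9 (8.10). It was the lowest of its group in Tnfrsf10b and the highest in the other genes. Its list scores were the highest of the group for the death receptor pathway (5.63), the 4-1BB pathway (5.47), costimulatory receptors (2.51), the interferon gamma response (7.997), T cells (3.45), regulatory T cells (2.33), NK and cytotoxic cells (2.80), dendritic cells (4.22), macrophages (7.47) and leukocytes in general (6.85). Its Cd40 level relative to dendritic cell genes was the lowest, at 1.17, against 1.74 to 2.01.

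In the SC group, replicate 5 stood apart with high Jak3 (5.76) and a low proliferation score (6.73). SC replicate 6 stood apart with high Atf4 (8.94), high Slc2a1 (6.19), the highest Tnfrsf9 relative to T cell genes (2.54, others 0.22 to 0.97) and the lowest skeletal muscle score (-1.07). Tnfrsf9 itself gave no such flag, since IK replicates 1 and 6 were both high.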

How the results depend on the processing

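The differences of the 3 receptors kept their sign under every alternative run, and none of them passed the test in any. The alternatives were looser and stricter filters, scaling by quantiles, medians or trimmed means, no variance trend, robust variances, voom, sample weights and leaving out tumors. Leaving out 1 tumor moved Tnfrsf10b between 0.06 and 0.14, Cd40 between -0.23 and -0.09 and Tnfrsf9 between 0.27 and 0.60. Over all genes 1 was called without the variance trend and 545 with sample weights, and 0 to 171 when 1 tumor was left out. Of genes in the pathway, state and marker lists, sample weights called 10, 18 and 38, and leaving out 1 tumor called 0 to 4, 0 to 15 and 0 to 11. Leaving out 1 tumor gave 1.29 to 2.12 for Tnfrsf9 relative to T cell genes, 1.15 to 1.89 relative to regulatory T cell genes, 0.51 to 0.92 relative to leukocyte genes, and 0.35 to 0.53 for Cd40 relative to dendritic cell genes. The cause of these shifts was not tested.

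Differences near 0 turned sign: Fadd to -0.0025 with trimmed-mean scaling and -0.013 with weights (-0.030 to 0.033 when 1 tumor was left out), Cflar to -0.017 with weights (-0.017 to 0.032), Traf3 to -0.0050 with weights (-0.0078 to 0.024), and Lrr1 only when 1 tumor was left out (-0.0072 to 0.092). Without the 2 farthest tumors r was -0.03 for Tnfrsf10b and Tnfrsf9 and 0.21 for Cd40 and Tnfrsf9. With the replicate number as a block, the receptors' differences were the same and their limma adjusted p 0.628 for Tnfrsf10b, 0.471 for Cd40 and 0.471 for Tnfrsf9, with 0 genes called. The deviations of same-numbered tumors from their group means had r of -0.31 to 0.45 over 6 pairs. Such values cannot show whether the numbers mark a shared batch. The median difference of all genes was 0.0074, and 0.026, 0.021 and 0.0044 under quantile, median and trimmed-mean scaling.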

Other observations

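Proliferation genes, whose score was not set against the receptors, had a higher mean in the IK group in 10 of 10 cases, beside 53.3% of all genes. Of them 7 were higher at an unadjusted limma p under 0.05, beside 5.86% of all genes. None was called, and their median difference was 0.11. Cdk1, the kinase that drives entry into mitosis, averaged 136 ± 7.60 CPM in the IK group and 119 ± 7.74 CPM in the SC group, above every SC tumor in 5 of 6 (log2 difference 0.19, limma adjusted p = 0.432). Bub1, a kinase of the spindle checkpoint, differed by 0.25 and Aurkb, another mitotic kinase, by 0.13. Bub1 was called without IK replicate 2 (0.32, limma adjusted p = 0.0412), and with sample weights Bub1 and Cdk1 were (limma adjusted p = 0.0384 and 0.0369). Stromal lists had lower means without a call, beside 46.7% of all genes with a lower mean: 9 of 10 endothelial genes (median difference -0.13), 9 of 10 fibroblast genes (-0.38) and all 5 tested of 8 fat cell genes (-1.15). Of 5 tested of 9 neutrophil genes 4 had a lower mean (median -0.21), and of 3 tested of 8 B cell genes 1 did (median 0.01). Of 7 tested of 8 skeletal muscle genes 2 did, and their median difference of 0.02 moved between -0.84 (without SC replicate 6, whose score was -1.07 against 3.94 to 5.85 in the other SC tumors) and 0.50 (without SC replicate 5) when 1 tumor was left out.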
